A study of Mus musculus with 16 samples.

Results

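The adipocyte transcription factors described here are Pparg, Cebpa, Cebpb, Cebpd, Rxra, Nr1h3, Klf15, Ebf1 and Zfp423. They were chosen by gene name for their role in building and maintaining fat cells, and the rule that names them uses no measured value. Earlier results of these data were known when they were chosen. They are 9 of 24454 genes in the count table.

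Fat cells arise from fibroblast-like precursors through a cascade of transcription factors. C/EBPβ and C/EBPδ act early, and they switch on PPARγ and C/EBPα, which then sustain each other and the genes of fat storage. EBF1 and ZFP423 act ahead of PPARγ in committed precursors, while RXRα, LXRα and KLF15 work in the mature fat cell on lipid, sterol and glucose genes. Insulin, fatty acids and glucocorticoids all act on this network in white fat.

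Gonadal fat came from lean males of the inbred mouse strain C57BL/6J, 16 weeks old and fed standard chow, and its polyadenylated RNA was sequenced. The study combined 2 surgeries with 2 infusions, and its title asks about a path from brain melanocortin signalling through the vagus nerve to fat that does not depend on energy intake. Subdiaphragmatic vagotomy (sDVX) cuts the vagus nerve below the diaphragm, and SHU9119 is an antagonist peptide at melanocortin receptors of the brain. The infusions went into the cerebral ventricles by minipump for 2 weeks at 1 nmol of SHU9119 per day, from 4 weeks after surgery, and food was isocaloric in all mice.

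The 4 groups held 4 libraries each. VX_SHU stands for sDVX with SHU9119, VX_Veh for sDVX with vehicle, Sham_SHU for sham surgery with SHU9119 and Sham_Veh for sham surgery with vehicle. All groups shared strain, sex, age, diet, an operation and a brain infusion. Whether the 4 libraries of a group are 4 different mice is not in the labels, and the p-values rest on the variation among libraries, which may be technical. Whole depots were homogenized. A lower level can therefore mean fewer cells of a type or less RNA per cell, and these cannot be told apart.

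Promoters of 8 of the 9 genes, all but Cebpd, were found in RefSeq (build GRCm38.p6), each running from 250 bases before to 50 bases after a start site. Those shown belong to the factors whose levels moved most closely together across libraries (Cebpa, Rxra and Nr1h3), to Pparg at its start numbered 3, and to Zfp423, which came nearest to the threshold under SHU9119. Capitals mark every match, on either strand, to a C/EBP core (TTNNGNAA), a CCAAT box (CCAAT), a GC box (GGGCGG), an E-box (CANNTG), a TATA box (TATAAA), a PPAR-RXR repeat (AGGTCA, any 1 base, AGGTCA), an LXR-RXR repeat (AGGTCA, any 4 bases, AGGTCA) or a glucocorticoid element (AGAACA, any 3 bases, TGTTCT). Adjoining matches run together. The windows are Cebpa chr7:35119043-35119342 on the plus strand, Rxra chr2:27676951-27677250 on the plus strand, Nr1h3 chr2:91195067-91195366 on the minus strand, Pparg chr6:115421816-115422115 on the plus strand and Zfp423 chr8:87959546-87959845 on the minus strand, each written 5′ to 3′.
Cebpa: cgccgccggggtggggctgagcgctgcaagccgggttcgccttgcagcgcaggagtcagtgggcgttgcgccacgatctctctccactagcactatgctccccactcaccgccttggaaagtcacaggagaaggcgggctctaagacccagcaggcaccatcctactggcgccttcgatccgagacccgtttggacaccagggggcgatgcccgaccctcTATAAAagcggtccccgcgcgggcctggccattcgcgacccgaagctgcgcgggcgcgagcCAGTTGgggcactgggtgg
Rxra: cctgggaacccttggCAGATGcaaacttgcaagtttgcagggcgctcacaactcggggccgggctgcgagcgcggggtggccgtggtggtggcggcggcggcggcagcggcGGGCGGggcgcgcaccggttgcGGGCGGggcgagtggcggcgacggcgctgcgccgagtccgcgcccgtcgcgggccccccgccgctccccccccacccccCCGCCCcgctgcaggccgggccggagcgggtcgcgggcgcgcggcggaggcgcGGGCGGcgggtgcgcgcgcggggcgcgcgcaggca
Nr1h3: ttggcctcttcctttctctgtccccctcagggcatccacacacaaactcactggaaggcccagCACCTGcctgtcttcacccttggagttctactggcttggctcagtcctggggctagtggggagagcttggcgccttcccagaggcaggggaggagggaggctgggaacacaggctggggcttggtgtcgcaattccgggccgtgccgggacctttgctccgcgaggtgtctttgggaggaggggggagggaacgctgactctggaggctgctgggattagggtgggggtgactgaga
Pparg: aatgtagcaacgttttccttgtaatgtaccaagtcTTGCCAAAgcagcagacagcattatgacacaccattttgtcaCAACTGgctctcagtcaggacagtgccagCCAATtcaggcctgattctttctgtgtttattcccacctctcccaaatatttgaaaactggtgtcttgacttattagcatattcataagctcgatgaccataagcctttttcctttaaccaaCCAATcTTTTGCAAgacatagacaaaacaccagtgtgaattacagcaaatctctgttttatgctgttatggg
Zfp423: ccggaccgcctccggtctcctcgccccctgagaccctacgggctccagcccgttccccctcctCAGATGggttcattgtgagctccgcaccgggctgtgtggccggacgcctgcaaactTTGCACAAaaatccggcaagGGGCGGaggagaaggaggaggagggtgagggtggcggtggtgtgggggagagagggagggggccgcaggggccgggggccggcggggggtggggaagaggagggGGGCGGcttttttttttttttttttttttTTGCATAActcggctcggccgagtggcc

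The motif letters were searched in all 32851 promoters of the RefSeq table. A C/EBP core was in 40.7% of them. Its capitals stand 215 and 16 bases before Pparg start 3, and 131 bases before and 23 bases into the transcript at Zfp423 start 1. Start 1 of Ebf1 and start 2 of Zfp423, not printed, held 1 each. None was found at Pparg starts 1 and 2, at Ebf1 start 2 or in any promoter of Cebpa, Cebpb, Rxra, Nr1h3 and Klf15. A CCAAT box was in 37.4%, with matches 144 and 22 bases before Pparg start 3. An E-box was in 72.3%, and each of the 5 promoters shown holds 1. A TATA box was in 13.6%, with a match 30 bases before the Cebpa start. A GC box was in 35.7%, and the Rxra promoter, of 83.0% G and C, held 4. The PPAR-RXR repeat was in 0.0396% of promoters, the LXR-RXR repeat in 0.0152% and the glucocorticoid element in 0.00913%, and the letters of these 3 were in none of the 14 promoters of the 8 genes. These are letter matches in short windows and not binding sites.

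Library totals ran from 20425295 to 30889052 counts. The adipocyte marker list (Adipoq, Plin1, Lipe, Cidec, Fabp4, Cfd, Lep and Retn) was detected in all 8 members, and its summed level was 22900 to 33540 CPM in VX_SHU, 13990 to 33010 CPM in VX_Veh, 26310 to 33430 CPM in Sham_SHU and 24610 to 43190 CPM in Sham_Veh libraries, where CPM is counts scaled to the same library size after TMM normalization. VX_Veh1 was the lowest of the 16 and also had the highest sums of 12 motile cilia genes (1263 CPM) and of mesothelium genes (653 CPM, 9 of the 10 listed being in the table). Epididymis genes (14 listed, 8 tested) reached 10450 CPM in VX_SHU4, 9807 CPM in VX_Veh4, 3280 CPM in Sham_SHU4 and 1684 CPM in Sham_SHU3, and 6 libraries in all, with at least 1 in each group, held 500 CPM or more of epididymis or testis genes. These 6 were Sham_Veh3, Sham_Veh4, Sham_SHU3, Sham_SHU4, VX_Veh4 and VX_SHU4. Of the epididymis genes, Lcn9, Lcn10 and Cst11 were at 0 in all VX_SHU libraries, Lcn9 and Lcn10 in all VX_Veh and Lcn10 in all Sham_SHU.

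Per length of transcript, the 9 factors spanned a wide range of levels, with Cebpa the highest and Cebpd the lowest. Levels across the 16 libraries are given as RPKM, CPM divided by the annotated exon length in kilobases. Cebpa (chr7:35119293-35121928), which drives terminal fat cell differentiation, stood at 274 ± 71.7 RPKM (SD, n = 16). Pparg (chr6:115360879-115490404), the nuclear receptor that is needed to form and keep fat cells, followed at 118 ± 26.7 RPKM. Each of these was above the next gene in the order in 16 of 16 libraries.

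Rxra (chr2:27676445-27763319) encodes the partner with which PPARγ and LXRα bind DNA, and had 49.4 ± 9.23 RPKM. Nr1h3 (chr2:91184061-91202829) encodes LXRα, a sensor of oxidized sterols, and had 42.6 ± 8.48 RPKM. The 2 means lay 6.78 RPKM apart, less than the SD of either gene, though Rxra was above Nr1h3 in 16 of 16 libraries. Ebf1 (chr11:44618100-45008096), an early B-cell factor that also acts in fat precursors and fat cells, had 34.0 ± 5.98 RPKM. Klf15 (chr6:90461043-90491803), a zinc finger factor of glucose and amino acid metabolism that glucocorticoids induce, had 30.9 ± 6.77 RPKM. Ebf1 and Klf15 did not differ beyond their spread, with Ebf1 the higher in 11 of 16 libraries.

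Cebpb (chr2:167688915-167690432), an early and hormone-responsive C/EBP, had 21.7 ± 6.46 RPKM. Zfp423 (chr8:87661810-87962053), a zinc finger factor that commits precursors to the fat lineage and restrains the thermogenic program in white fat cells, had 9.44 ± 1.32 RPKM. Cebpd (chr16:15887286-15889545), the other early C/EBP, had 4.95 ± 1.35 RPKM on an exon length of 3746 bases, or 8.21 ± 2.23 RPKM on the RefSeq span of 2260 bases. Raw counts were 226 to 811 per library for Cebpd and 7232 to 24472 for Cebpa. The spread between libraries of a group (biological coefficient of variation) was 13.3% for Zfp423 and 29.2% for Cebpd, with the other 7 in between.

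**Figure D1:**
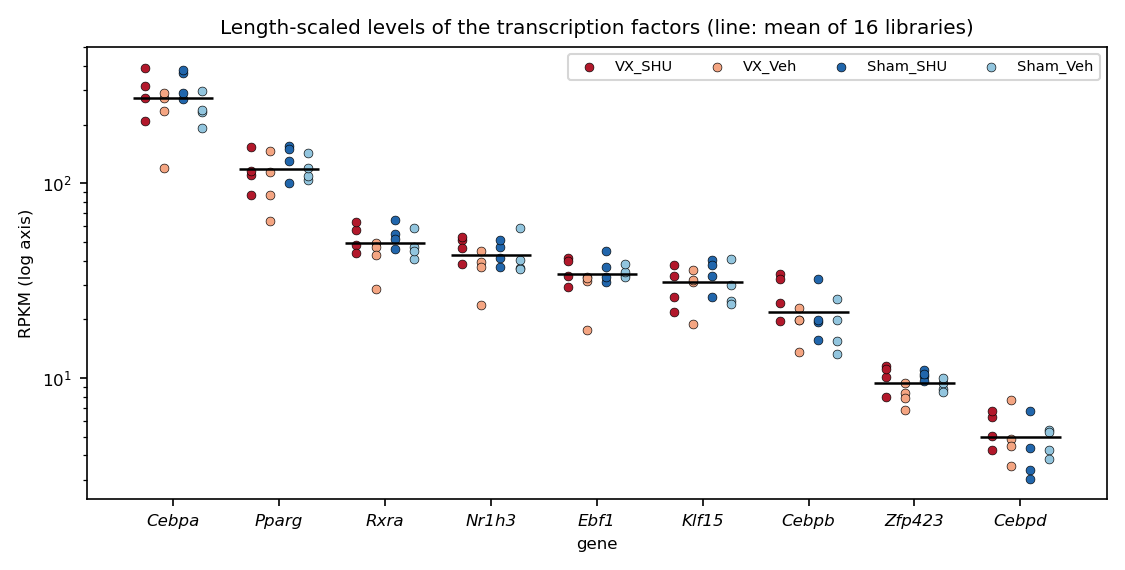
Length-scaled level (RPKM, log axis) of each transcription factor in the 16 libraries, coloured by group, with a line at the mean of all libraries. Cebpa lies highest at a mean of 274 RPKM and Cebpd lowest at 4.95 RPKM, and VX_Veh1 is the lowest point of 7 of the 9 genes.

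Under SHU9119, averaged over both surgeries, all 9 factors had a log2 fold change above 0, beside 44.6% of all genes. Most of the factors varied together across libraries, as described below, so these signs are not independent. The log2 fold changes ran from 0.01 for Cebpd to 0.42 for Cebpa, and no factor passed the threshold. The test was edgeR's quasi-likelihood F test with Benjamini-Hochberg adjustment over 16682 genes and a threshold of 0.05. In this comparison 312 genes (1.87%) passed, 251 higher and 61 lower, against 0 of the 9 factors. At an unadjusted p under 0.05 the count was 2 of 9, Zfp423 and Cebpa, beside 28.5% of all genes. The median log2 fold change was 0.21 over the 9 factors and -0.03 over all genes. The DESeq2 Wald test called 1 factor, Zfp423, among 2792 genes (16.7% of all genes).

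Zfp423 was the factor nearest to the threshold. It had 58.3, 50.9, 56.2 and 40.2 CPM in VX_SHU libraries 1 to 4, 34.4, 47.7, 42.3 and 39.9 CPM in VX_Veh, 51.8, 55.8, 48.5 and 52.9 CPM in Sham_SHU, and 44.6, 47.7, 50.3 and 42.7 CPM in Sham_Veh. In each surgery 3 of the 4 SHU9119 libraries lay above every vehicle library, while VX_SHU4 and Sham_SHU3, with 10450 and 1684 CPM of epididymis genes, lay among the vehicle libraries. Sham_SHU4, with 3280 CPM of epididymis genes, lay above every vehicle library. The mean was 51.8 ± 5.66 CPM under SHU9119 and 43.7 ± 5.07 CPM under vehicle (SD, n = 8 each). The log2 fold change averaged over surgeries was 0.25 ± 0.081 (SE, edgeR adjusted p = 0.0874). It was 0.32 ± 0.115 after sDVX (edgeR adjusted p = 0.427) and 0.17 ± 0.115 after sham surgery (adjusted p = 0.406). The averaged value passed the threshold under the DESeq2 Wald test (0.25, adjusted p = 0.0303), where 16.7% of all genes passed. It also passed without the 6 libraries holding epididymis or testis genes (0.33, edgeR adjusted p = 0.0454), beside 24.4% of all genes. Without VX_SHU4 it passed (0.30, edgeR adjusted p = 0.0441) beside 380 of 16937 genes. The adjusted p over the 21 alternatives ran from 0.0303 to 0.183. The summed level of 10 fat progenitor and stromal markers was 4539 to 5237 CPM in VX_SHU, 3153 to 4112 CPM in VX_Veh, 4342 to 4780 CPM in Sham_SHU and 3825 to 4863 CPM in Sham_Veh libraries. What these markers and the epididymis genes contributed to the Zfp423 values was not tested.

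Cebpa had 836, 725, 1034 and 553 CPM in VX_SHU libraries 1 to 4, 315, 718, 766 and 618 CPM in VX_Veh, 971, 1008, 709 and 762 CPM in Sham_SHU, and 504, 615, 784 and 626 CPM in Sham_Veh. Its groups overlapped in both surgeries, since Sham_Veh3 stood above Sham_SHU3 and Sham_SHU4, and VX_Veh3 above VX_SHU2 and VX_SHU4. The mean was 825 ± 169 CPM under SHU9119 and 618 ± 153 CPM under vehicle (SD, n = 8 each). The log2 fold change was 0.42 ± 0.181 averaged over surgeries (edgeR adjusted p = 0.152), with a 95% interval of 0.03 to 0.80. Pparg had 260.3, 273, 364 and 207.5 CPM in VX_SHU, 151, 347, 272 and 207 CPM in VX_Veh, 369, 354, 239 and 310.3 CPM in Sham_SHU, and 246, 258, 340.5 and 283 CPM in Sham_Veh. High and low libraries occurred in all 4 groups, and the log2 fold change was 0.18 with a 95% interval of -0.18 to 0.53 (edgeR adjusted p = 0.517).

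Of the early C/EBPs, Cebpb had 36.6, 51.1, 48.2 and 29.4 CPM in VX_SHU, 20.45, 29.7, 34.4 and 29.7 CPM in VX_Veh, 29.3, 48.3, 23.5 and 29.9 CPM in Sham_SHU, and 19.9, 29.9, 38.2 and 23.2 CPM in Sham_Veh. VX_SHU1 to VX_SHU3 lay above every VX_Veh library and VX_SHU4 below 3 of them, while the sham groups mixed. The log2 fold change was 0.53 ± 0.261 after sDVX, the largest of any factor there (edgeR adjusted p = 0.438), and 0.24 ± 0.26 after sham surgery (adjusted p = 0.624). Leaving out 1 library moved the sham value of Cebpb to 0.0056 without Sham_SHU2 and to 0.43 without Sham_Veh3. Cebpd had 23.7, 25.2, 16.05 and 18.8 CPM in VX_SHU, 13.3, 18.1, 16.7 and 29.0 CPM in VX_Veh, 12.7, 25.3, 16.3 and 11.4 CPM in Sham_SHU, and 15.95, 14.4, 20.2 and 19.7 CPM in Sham_Veh. It showed no order between groups, with a log2 fold change of 0.01 averaged over surgeries and a 95% interval of -0.40 to 0.42 (edgeR adjusted p = 0.973).

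Among the nuclear receptors, Rxra had 295, 247, 324 and 223 CPM in VX_SHU, 145, 251, 240.0 and 219 CPM in VX_Veh, 280.5, 332, 236 and 264 CPM in Sham_SHU, and 207, 239, 302 and 229 CPM in Sham_Veh. VX_Veh1 was far below the rest, and the other values mixed between infusions. The averaged log2 fold change of Rxra was 0.27 ± 0.126 (edgeR adjusted p = 0.181). Nr1h3 had 109, 100, 113 and 82.5 CPM in VX_SHU, 51.0, 84.2, 96.0 and 79.7 CPM in VX_Veh, 101, 109, 79.5 and 88.9 CPM in Sham_SHU, and 79.0, 77.5, 127 and 86.7 CPM in Sham_Veh. After sDVX 3 SHU9119 libraries lay above every vehicle library, and after sham surgery the highest of all 16 was a vehicle library, Sham_Veh3. The log2 fold change of Nr1h3 was 0.38 ± 0.197 after sDVX (edgeR adjusted p = 0.444) and 0.03 ± 0.197 after sham surgery (adjusted p = 0.931). Without VX_Veh1 the value for Nr1h3 after sDVX was 0.24.

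Ebf1 had 248, 200.1, 238 and 176 CPM in VX_SHU, 106, 188, 196 and 195 CPM in VX_Veh, 267, 187, 222 and 197 CPM in Sham_SHU, and 201, 198, 210.0 and 229 CPM in Sham_Veh. VX_Veh1, at 105.9 CPM, stood far under the other 3 libraries of its group, which ran from 188 to 196.2 CPM. The log2 fold change under SHU9119 was 0.33 ± 0.18 after sDVX (edgeR adjusted p = 0.458) and 0.06 ± 0.18 after sham surgery (adjusted p = 0.863). Without VX_Veh1 the value after sDVX was 0.17. Klf15 ranged from 60.1 to 105 CPM in VX_SHU, from 52.3 to 98.2 CPM in VX_Veh, from 71.3 to 111 CPM in Sham_SHU and from 66.0 to 113 CPM in Sham_Veh. These ranges covered nearly the same span, and the averaged log2 fold change of Klf15 was 0.11 with a 95% interval of -0.25 to 0.46 (edgeR adjusted p = 0.698).

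**Figure D2:**
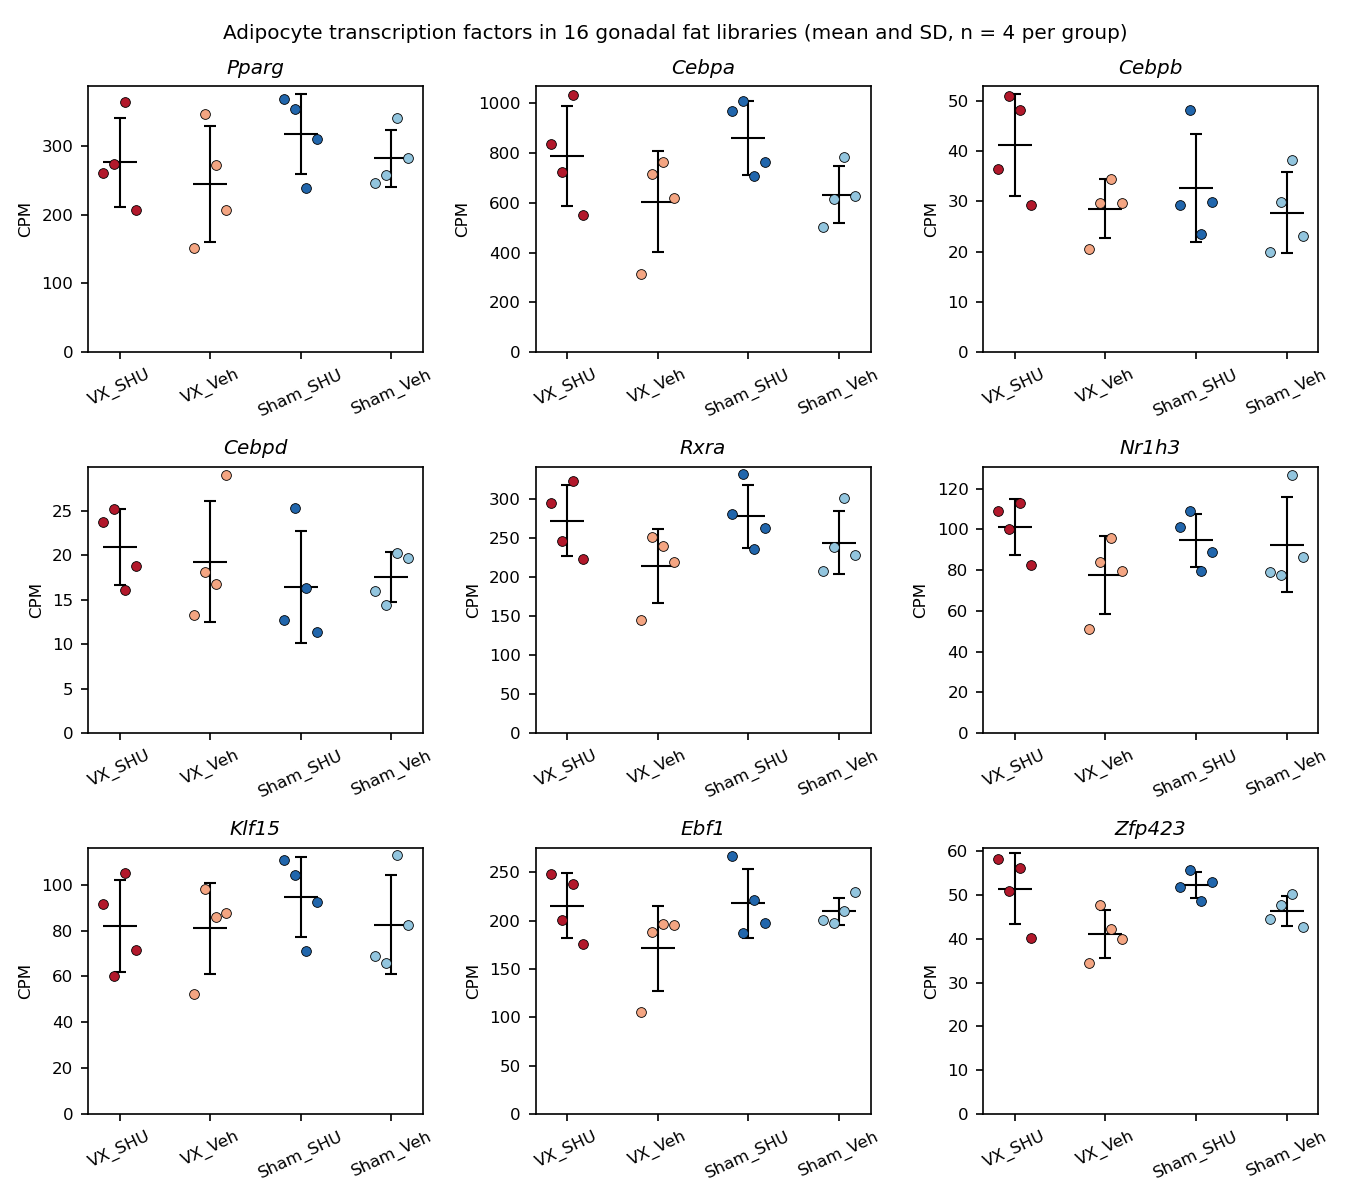
CPM of each transcription factor in every library (points), with the mean and SD of each group of 4 libraries (lines), axes starting at 0. The groups overlap in nearly every panel, the SHU9119 libraries of Zfp423 lie mostly above the vehicle libraries, and VX_Veh1 is the lowest point of 7 of the 9 genes.

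Within sham surgery alone, 0 of 9 factors passed against 19 of all genes (0.114%). A log2 fold change above 0 was found in 8 of 9 factors and 43.2% of all genes, with medians of 0.17 and -0.06. No factor had all Sham_SHU libraries beyond all Sham_Veh libraries, as 10.4% of genes did. At an unadjusted p under 0.05 the counts were 0 of 9 factors and 3273 genes by edgeR, and the DESeq2 Wald test called 0 factors among 1205 genes. After sDVX, 0 of 9 passed against 1 gene (0.00599%). All 9 factors and 46.9% of all genes had a log2 fold change above 0, with medians of 0.33 and -0.02. No factor had all VX_SHU libraries beyond all VX_Veh libraries, as 4.95% of genes did. Zfp423 alone was under an unadjusted p of 0.05 there, beside 1942 genes, and DESeq2 called 0 factors among 54 genes. Without VX_Veh1 the median after sDVX was 0.18, with 7 of 9 factors above 0. The cilia sum was 10.1 to 214 CPM in VX_SHU and 18.3 to 1263 CPM in VX_Veh libraries, and 15.4 to 219.9 CPM in Sham_SHU and 10.4 to 472 CPM in Sham_Veh libraries, and the mesothelium sum was 86.1 to 282 CPM in VX_SHU, 256 to 653 CPM in VX_Veh, 33.6 to 187 CPM in Sham_SHU and 111 to 339 CPM in Sham_Veh libraries. Their part in these values was not tested.

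The interaction asks whether the SHU9119 effect differed between sDVX and sham mice. It was not resolved for any factor, with 0 of 9 and 0 of all genes (0%) past the threshold in edgeR, 0 factors and 794 genes at an unadjusted p under 0.05, and 0 factors among 8 genes by DESeq2. The largest values were those of Nr1h3 (0.35, 95% interval -0.25 to 0.95) and Cebpb (0.30, 95% interval -0.50 to 1.09), both with an adjusted p of 0.999. Pparg, at 0.00, had an interval of -0.71 to 0.72, and differences within that interval could not be resolved with this number of libraries.

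For sDVX no factor passed the threshold, and the 9 lay on both sides of 0. Under SHU9119 the log2 fold change of sDVX ran from -0.21 for Klf15 to 0.35 for Cebpd. It was above 0 for 3 of 9 factors and 49.1% of all genes, and the factors' median was -0.02. Under vehicle it ran from -0.29 for Ebf1 to 0.14 for Cebpd. It was then above 0 for 2 of 9 factors and 51.5% of all genes, and the factors' median was -0.17. In neither comparison, nor averaged over infusions, did edgeR call a factor or any gene (0% each), with unadjusted p under 0.05 for 0 factors in each and for 1778, 1335 and 2666 genes, in that order. DESeq2 called 0 factors among 93, 11 and 409 genes.

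Averaged over infusions, the 2 factors above 0 were Cebpd (0.24, 95% interval -0.17 to 0.65, edgeR adjusted p = 0.53) and Cebpb (0.19, 95% interval -0.21 to 0.58, adjusted p = 0.613), the early C/EBPs. Pparg was the lowest at -0.21 (95% interval -0.56 to 0.15, edgeR adjusted p = 0.539). Ebf1 was the 1 factor of 9 with no overlap between groups in any comparison of single groups, since all VX_Veh libraries lay below all Sham_Veh libraries, as 2.16% of all genes did (3.09% in either direction). Under SHU9119 no factor separated sDVX from sham libraries, as 5.64% of genes did. The gap was narrow, with at most 196.2 CPM in VX_Veh libraries and at least 197.6 CPM in Sham_Veh libraries, and the log2 fold change of Ebf1 under vehicle was -0.29 (adjusted p = 0.639), or -0.09 without VX_Veh1.

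**Figure D3:**
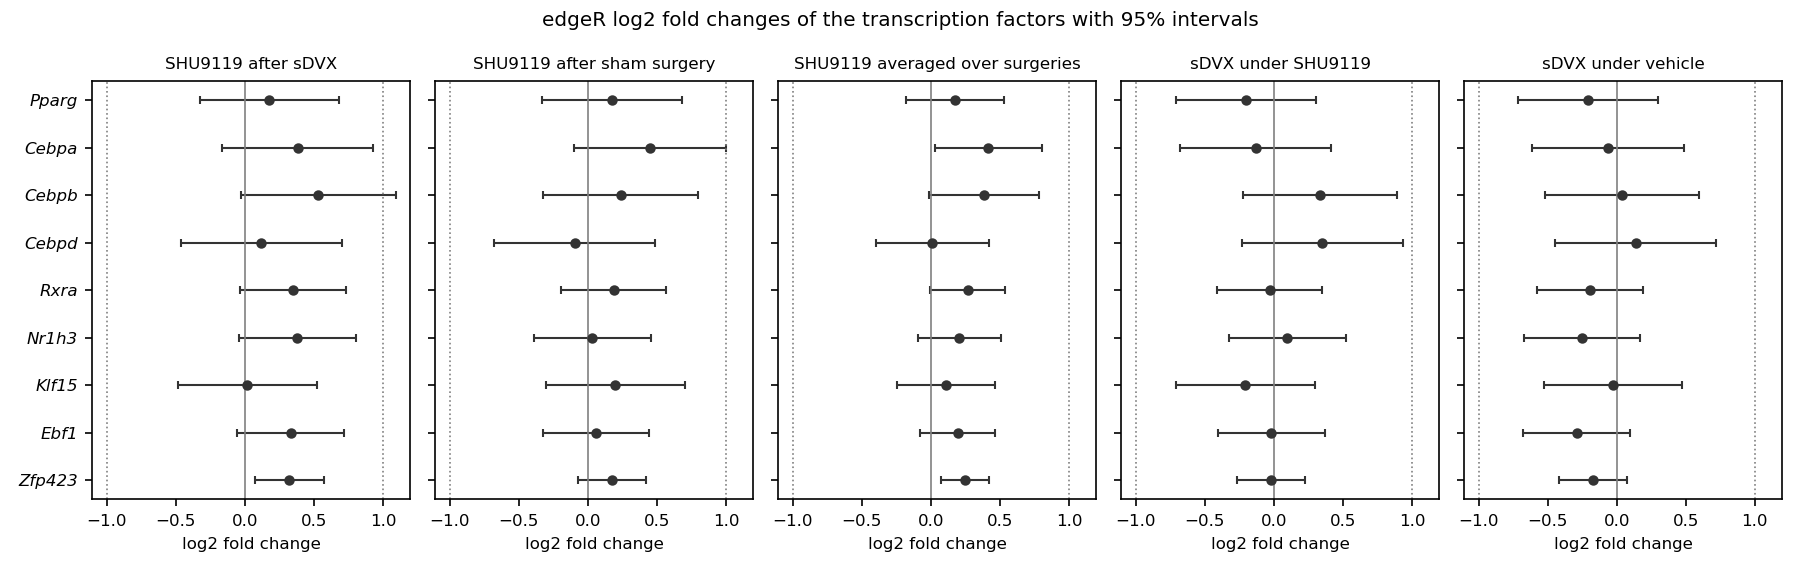
edgeR log2 fold changes of the 9 transcription factors (points) with 95% intervals (bars) in 5 comparisons, a solid line at 0 and dotted lines at 1 and -1. SHU9119 values lie above 0 for all 9 genes when averaged over surgeries, and sDVX values lie on both sides of 0, with only the intervals of Zfp423 and Cebpa clear of 0, before adjustment over all genes.

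Beyond the 9 factors, 7 gene lists gave the wider network, of which the targets of PPARγ and C/EBPα are the nearest. Under SHU9119 averaged over surgeries, 2 of 30 such targets rose and 0 fell, beside 1.87% of all genes called. Of the 30 targets, 27 had a log2 fold change above 0, beside 44.6% of all genes, and their median was 0.34. Dgat2, the enzyme of the last step of triglyceride synthesis, had 2589, 2267, 3609 and 2094 CPM in VX_SHU, 848.5, 1994, 1748 and 1660 CPM in VX_Veh, 3697, 3848, 2115 and 3195 CPM in Sham_SHU, and 1251, 1483, 1773 and 1563 CPM in Sham_Veh. Every SHU9119 library lay above every vehicle library. Of all genes, 10.4% had no overlap between Sham_SHU and Sham_Veh libraries in either direction, and 4.95% none between VX_SHU and VX_Veh libraries. The share without overlap over both surgeries together was not counted. The log2 fold change of Dgat2 was 0.92 ± 0.185 (edgeR adjusted p = 0.0384). Agpat2, an acyltransferase of the same pathway, rose by a log2 fold change of 0.97 ± 0.222 (edgeR adjusted p = 0.0473). Next by p was Fabp5, a fatty acid binding protein, at 1.00 (edgeR adjusted p = 0.0611). Without the 6 libraries holding epididymis or testis genes 8 of 30 targets passed, all higher, beside 24.4% of all genes in that fit. By the DESeq2 Wald test 9 of 30 did, all higher, beside 16.7% of all genes.

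LXR targets gave 1 of 18 past the threshold under averaged SHU9119, with 10 above 0 and a median of 0.03, and without the 6 libraries holding epididymis or testis genes 3 were higher and 1 lower, beside 24.4% of all genes called in that fit. The target was Scd2, a stearoyl-CoA desaturase, which averaged 676 ± 147 CPM in VX_SHU, 542 ± 162 CPM in VX_Veh, 1080 ± 308 CPM in Sham_SHU and 272 ± 54.9 CPM in Sham_Veh libraries (SD, n = 4 each). Scd2 rose by 1.15 ± 0.184 averaged over surgeries (edgeR adjusted p = 0.0238) and by 1.99 ± 0.266 after sham surgery (adjusted p = 0.0271). Its interaction was -1.67 ± 0.365, toward a smaller rise after sDVX (edgeR unadjusted p = 0.000452, adjusted p = 0.957). Next by p among the LXR targets under averaged SHU9119 were Fasn (1.10, edgeR adjusted p = 0.0826) and Scd1 (0.86, adjusted p = 0.0832). Under SHU9119 after sDVX the LXR targets with the smallest p were Rassf4 (0.22, edgeR adjusted p = 0.427) and Myo1e (-0.47, adjusted p = 0.454). The cholesterol exporter Abcg1 came next (0.24, edgeR adjusted p = 0.469). The levels of Nr1h3 itself are given above, with an averaged log2 fold change of 0.21 (edgeR adjusted p = 0.346).

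Of 12 genes of the insulin and sterol response list, 1 rose under averaged SHU9119, with 7 above 0 and a median of 0.11, and 4 were higher without the same 6 libraries, where 24.4% of all genes were called. It was Insig1, which is no transcription factor but holds the SREBP factors in the endoplasmic reticulum when sterols are plentiful. Insig1 averaged 363 ± 108 CPM in VX_SHU, 234 ± 70.2 CPM in VX_Veh, 678 ± 227 CPM in Sham_SHU and 189.9 ± 19.1 CPM in Sham_Veh libraries (SD, n = 4 each). Its log2 fold change was 1.24 ± 0.206 averaged over surgeries (edgeR adjusted p = 0.0265) and 1.84 ± 0.296 after sham surgery (adjusted p = 0.0415). After sDVX it was 0.64 ± 0.288 (edgeR adjusted p = 0.427), with an interaction of -1.20 ± 0.407 (unadjusted p = 0.0108, adjusted p = 0.957).

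Under averaged SHU9119, 28.5% of all genes had an unadjusted p under 0.05 and 44.6% a log2 fold change above 0. The other 4 lists had 0 calls by edgeR in this comparison. They were 31 tested genes of other adipocyte factors and cofactors (17 above 0, median 0.02, 6 at an unadjusted p under 0.05), 19 glucocorticoid-induced genes (10 above 0, median 0.02, 4 unadjusted), 25 amino acid breakdown genes linked to KLF15 (18 above 0, median 0.05, 5 unadjusted) and 24 inhibitors and precursor genes of fat cell formation (10 above 0, median -0.06, 6 unadjusted). By the DESeq2 Wald test 3, 2, 3 and 2 of them passed, in that order, beside 16.7% of all genes, and without the 6 libraries holding epididymis or testis genes 3, 5, 4 and 5, all 5 of the last lower, beside 24.4% of all genes. In the same order of lists, the smallest p belonged to Klf5, a factor of early fat cell formation (-1.44, edgeR adjusted p = 0.0778), Cdkn1a, a cell cycle inhibitor (0.69, adjusted p = 0.0862), Prodh, which breaks down proline (-0.47, adjusted p = 0.0782), and Dlk1, a precursor protein that restrains fat cell formation (-1.06, adjusted p = 0.0927). Klf5 was near the floor, at 0.082 to 2.55 CPM over the libraries. Dlk1 was also low, at 0.427 to 5.92 CPM, and highest in VX_Veh1. In edgeR none of the 7 lists had a gene past the threshold for sDVX or for SHU9119 after sDVX. For averaged sDVX, 2 to 5 genes a list had an unadjusted p under 0.05, beside 16% of all genes. DESeq2 called 1 gene in each of 3 lists there, beside 409 of 16682 genes. Of the 30 targets of PPARγ and C/EBPα, 3 had a log2 fold change above 0 for sDVX under SHU9119 and 7 under vehicle. Their medians were -0.19 and -0.24, and 49.1% and 51.5% of all genes were above 0.

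The calls of these list genes were fragile. Leaving out 1 library at a time kept Dgat2 past the threshold in 7 of 16 fits, Agpat2 in 3, Scd2 in 10 and Insig1 in 7, all averaged over surgeries. After sham surgery Scd2 kept its call in 7 of 16 fits, with an adjusted p of 0.14 without Sham_Veh1, and Insig1 in 3, with 0.16 without Sham_SHU2. The log2 fold changes after sham surgery lay between 1.91 and 2.18 for Scd2 and between 1.72 and 2.07 for Insig1 over the 22 alternatives. The averaged log2 fold changes lay between 0.83 and 1.19 for Dgat2, 0.85 and 1.34 for Agpat2, 1.08 and 1.26 for Scd2, and 1.12 and 1.45 for Insig1 over the 21 alternatives. Without VX_SHU3 all 4 lost the call, at adjusted p of 0.0908 for Dgat2, 0.109 for Agpat2, 0.0598 for Scd2 and 0.0599 for Insig1. The same 4 were also lost without each of Sham_SHU1, Sham_SHU2, Sham_SHU4, Sham_Veh3 and VX_Veh3.

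Across the 16 libraries the factors varied together, with Cebpd apart from the rest. Of 36 pairs, 26 were correlated on log2 CPM (Pearson, permutation test, Benjamini-Hochberg over the 36 pairs) and 19 by Spearman's rho, with a median r of 0.74. The share of correlated pairs among all genes was not counted. The closest pair was Cebpa and Rxra (r = 0.957, permutation p = 1e-05, adjusted p = 9e-05, rho = 0.941, permutation p = 1e-05, adjusted p = 0.00012). That p is the smallest the 100000 permutations can give. Without VX_Veh1 and VX_SHU3, the 2 libraries farthest from the median of Cebpa, r was 0.891. Rxra and Nr1h3 followed with r = 0.931 (permutation p = 1e-05, adjusted p = 9e-05) and rho = 0.879 (permutation p = 1e-05, adjusted p = 0.00012), and r = 0.865 without VX_Veh1 and Sham_SHU2.

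Pparg and Cebpa, which sustain each other in fat cells, had r = 0.874 (permutation p = 1e-05, adjusted p = 9e-05) and rho = 0.818 (permutation p = 0.0002, adjusted p = 0.0012), and r = 0.737 without VX_Veh1 and Sham_SHU1. Cebpd passed with none of the other 8, its highest r being 0.459 with Cebpb (permutation p = 0.0757, adjusted p = 0.101, rho = 0.468, permutation p = 0.0712, adjusted p = 0.116, and r = 0.219 without VX_SHU2 and Sham_SHU2). Cebpb missed the threshold also with Klf15 (r = 0.434) and Ebf1 (r = 0.316). With values centred on the group means 23 of 36 pairs passed, without the 6 libraries holding epididymis or testis genes 26, and without VX_Veh1 17, with a median r of 0.52. The values of a library share its depth and its mix of cells.

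**Figure D4:**
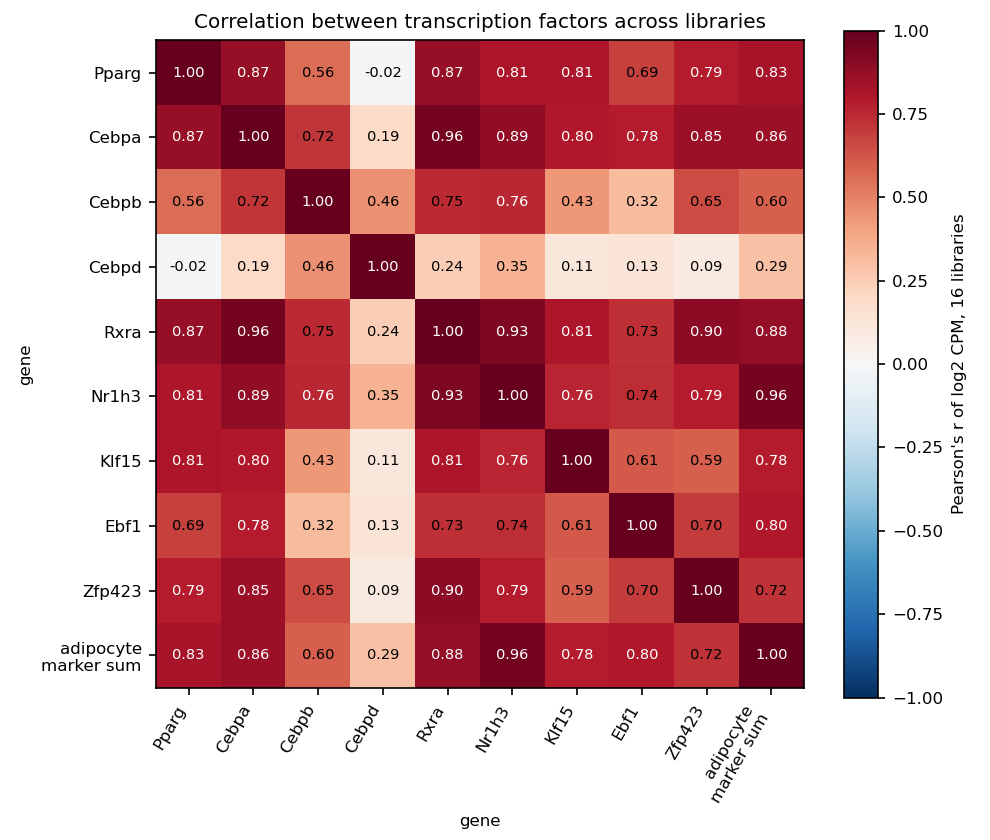
Pearson's r between log2 CPM values of the 9 transcription factors and the log2 of the summed adipocyte markers over 16 libraries, on a colour scale from -1 to 1. The rows of Cebpa, Rxra and Nr1h3 hold the highest values, up to 0.957 between factors, and the row of Cebpd runs from -0.017 to 0.459.

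The summed level of the 8 adipocyte markers, a relation added after the data were seen, followed most of the same factors. Of 9 relations 8 passed (Pearson and Spearman, permutation tests, Benjamini-Hochberg over 9), all but Cebpd (r = 0.295, permutation p = 0.273, adjusted p = 0.273, rho = 0.244, permutation p = 0.361, adjusted p = 0.361, and r = 0.057 without VX_Veh1 and Sham_Veh3). Nr1h3 had the highest, r = 0.959 (permutation p = 1e-05, adjusted p = 9e-05) and rho = 0.926 (permutation p = 1e-05, adjusted p = 9e-05), and r = 0.881 without VX_Veh1 and Sham_Veh3. For Cebpa r was 0.856 (permutation p = 0.00012, adjusted p = 0.00027) and rho 0.882 (permutation p = 4e-05, adjusted p = 0.00018), and r was 0.823 without those 2 libraries.

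Among all 16682 genes the median r with the marker sum was -0.05, and 7.57% had an r of 0.7 or more, as 7 of the 9 factors did. A correlation at least as high as that of Nr1h3 was found in 0.054% of genes, and at least as high as that of Zfp423 (r = 0.722) in 6.52%. Without VX_Veh1, whose marker sum of 13990 CPM was the lowest, 5 of the 9 relations passed, 7 by Spearman's rho, and the median Pearson r was 0.68. VX_Veh1 was also the lowest library of 7 of the 9 factors, the exceptions being Cebpb, lowest in Sham_Veh1, and Cebpd, lowest in Sham_SHU4.

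**Figure D5:**
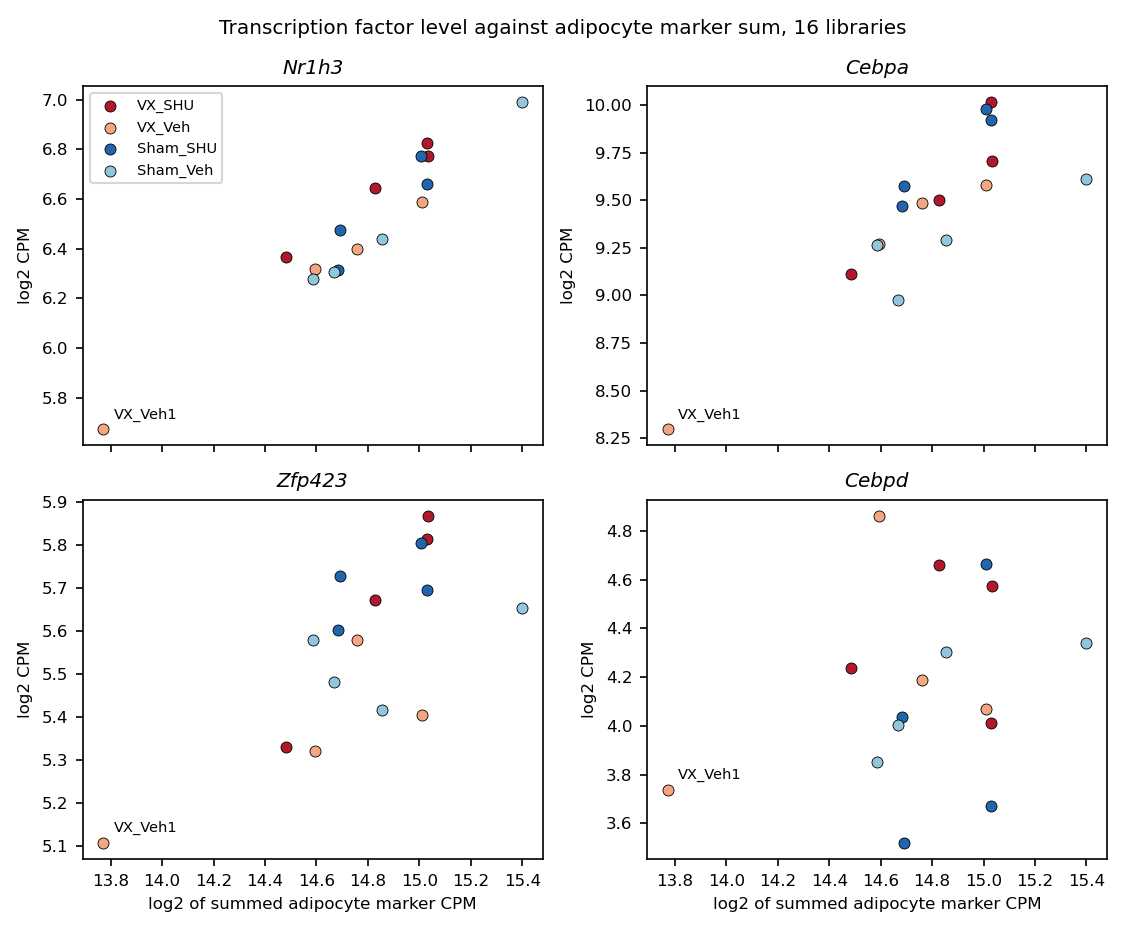
Log2 CPM of Nr1h3, Cebpa, Zfp423 and Cebpd against the log2 of the summed adipocyte marker CPM in 16 libraries, coloured by group. Nr1h3 follows the marker sum most closely (r = 0.959), Cebpd does not (r = 0.295), and VX_Veh1 lies at the low end of the marker sum.

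For each factor the 2 genes with the most similar pattern were taken from 11696 genes, by the root mean square difference of log2 CPM values centred on each gene's mean over the 16 libraries. Cebpa was closest to Ifi27 (0.08), an interferon-inducible gene, and Plin1 (0.092), which encodes the coat protein of the fat droplet. Rxra was closest to Chst14 (0.08) and Nlrx1 (0.082), and Nr1h3 to Rbms2 (0.085) and Tmem134 (0.092). Zfp423 was closest to Npdc1 (0.081) and Rgs19 (0.089), and Ebf1 to Celf2 (0.09), an RNA-binding protein, and Ptprm (0.118), a receptor phosphatase.

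Pparg was closest to Stc2 (0.109) and Fgfrl1 (0.131), and Klf15 to Dtx3l (0.123) and Hadh (0.147), an enzyme of fatty acid oxidation. The nearest genes to Cebpb were the lipogenic factors Mlxipl (0.197) and Srebf1 (0.206), and those to Cebpd were Mustn1 (0.192) and Hs3st1 (0.195). For scale, the SD of the factors' own log2 CPM ran from 0.208 for Zfp423 to 0.425 for Cebpa.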

How the data were processed

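The deposited files hold raw read counts per gene, listed by NCBI gene number, for 16 libraries of polyadenylated RNA. Per the submitters' processing notes bcl2fastq, TopHat, edgeR and the mm10 build were used. How reads were assigned to genes, with which annotation and whether by strand, is not given in the sources used here. Of the gene numbers, 24374 had a symbol in the reference tables and 80 did not. Totals per library ran from 20425295 to 30889052 counts, with 226 or more for every factor, so the spread between libraries sets the precision.

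Counts were normalized by TMM, filtered by filterByExpr to 16682 genes (all 9 factors passed) and fitted with 1 mean per group in edgeR 4.0.16 (limma 3.58.1, R 4.3.3), with two-sided quasi-likelihood F tests, adjusted by Benjamini-Hochberg over all genes at 0.05. The fit was tested on simulated data. Correlations used log2 CPM with a prior count of 2 and 100000 permutations, two-sided. RPKM used GENCODE M21 exon lengths. Coordinates, promoters and symbols came from RefSeq (GRCm38.p6).

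All 9 factors are given throughout; list genes are named if past the threshold, or else among the 3 with the smallest p, and 2 genes of most similar pattern (mean of at least 5 CPM) per factor. The members, lists and rules were chosen with earlier results of these data known. The Wald test of DESeq2 1.42.0 and its size factors were tried as alternatives, as were keeping all genes with a count, the replicate number as a block, only the groups compared, group-centred values and omission of each library. Leaving out the 6 libraries with epididymis or testis genes, and all alternatives for list genes and the marker sum, were added after the data were seen. Within groups, 24 pairs of libraries differed by 11.8 to 204 in chi-square per degree of freedom, so none was counted as a duplicate.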

Additional observations from a re-analysis of the deposited data

Results flagged for a closer look

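Among 36 sets of 4 libraries (9 factors in 4 groups) checked for a library far from the others, 1 was found. Chance alone flags about 1 in 20 such sets, so 1 among 36 is no more than chance gives. The flagged value was Ebf1 in VX_Veh1, at 105.9 CPM against 188 to 196.2 CPM in the other 3 VX_Veh libraries. Its gap to the nearest of them was 0.909 of the range of the group, above Dixon's 95% critical value for 4 libraries. The same library had the lowest adipocyte marker sum, 13990 CPM, and the highest motile cilia sum, 1263 CPM, and their part in the Ebf1 value was not tested.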

How the results depend on the processing

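The factors' own calls changed little: of 1359 values of the factors under the alternatives, 1295 kept direction and side of the threshold, 61 changed sign and 3 newly passed, all 3 of them Zfp423 under averaged SHU9119. Counts of all genes past the threshold moved far more. With the DESeq2 Wald test they were 1205 for SHU9119 after sham surgery, 54 for SHU9119 after sDVX, 93 for sDVX under SHU9119, 11 for sDVX under vehicle, 8 for the interaction, 2792 for averaged SHU9119 (1 factor) and 409 for averaged sDVX. With the replicate block they were 0 for SHU9119 after sham surgery, 0 after sDVX and 0 averaged, with Zfp423 at 0.25 (edgeR adjusted p = 0.117) and no call left for Dgat2, Agpat2, Scd2 and Insig1. The numbers were not taken as a pairing: over 24 same-numbered pairs of libraries the correlation of deviations ran from -0.689 to 0.676, with 13 over 0.1, and 5 of 16 libraries correlated best with their own number. With only the 2 groups compared the counts were 1 for SHU9119 after sham surgery and 0 after sDVX. DESeq2 size factors gave 0 and no low-count filter gave 0 for SHU9119 after sDVX, and no filter gave 167 for averaged SHU9119 and a log2 fold change of 0.0013 for Ebf1 under sDVX with SHU9119. Without the 6 libraries holding epididymis or testis genes the counts were 0 for SHU9119 after sham surgery, 0 after sDVX and 4062 averaged (1 factor). The sham comparison then rested on Sham_SHU1 and Sham_SHU2 against Sham_Veh1 and Sham_Veh2 only.

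Signs turned without those 6 libraries for Cebpd under SHU9119 after sham surgery (0.33), for Pparg (0.038), Cebpa (0.11) and Klf15 (0.24) under sDVX with vehicle, for Ebf1 (0.033) and Zfp423 (0.063) under sDVX with SHU9119, for Pparg in the interaction (-0.29) and for Nr1h3 under averaged sDVX (0.024). Leaving out each library in turn gave 0 to 982 genes for SHU9119 after sham surgery, 0 to 1 after sDVX, 3 to 1612 averaged (0 to 1 factors), 0 to 3 for sDVX under SHU9119, 0 to 1 under vehicle and 0 to 1 for the interaction. The 982 genes were reached without Sham_SHU3. Values near 0 then crossed it. SHU9119 after sham surgery ran from -0.37 to 0.046 for Cebpd, -0.026 to 0.23 for Nr1h3 and -0.052 to 0.14 for Ebf1. SHU9119 after sDVX ran from -0.014 to 0.38 for Cebpd and -0.13 to 0.14 for Klf15, and averaged SHU9119 from -0.12 to 0.14 for Cebpd. sDVX under SHU9119 ran from -0.29 to 0.0047 for Cebpa, -0.12 to 0.065 for Rxra, -0.091 to 0.11 for Ebf1 and -0.088 to 0.079 for Zfp423. sDVX under vehicle ran from -0.20 to 0.17 for Cebpa, -0.084 to 0.23 for Cebpb, -0.13 to 0.30 for Cebpd and -0.13 to 0.17 for Klf15. Averaged sDVX ran from -0.18 to 0.028 for Cebpa and -0.14 to 0.022 for Nr1h3, and the interaction from -0.18 to 0.22 for Pparg and -0.29 to 0.068 for Cebpa. The correlated pairs of factors numbered 17 to 27 of 36, and the factors correlated with the adipocyte marker sum 5 to 8 of 9, the lowest of both without VX_Veh1. The cause of these changes was not tested.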
